A study of Mus musculus with 6 samples.

Results

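Long noncoding RNAs (lncRNAs) that were expressed in smooth muscle cells of the mouse pulmonary artery (mPASMCs) were examined after knockdown of *Snhg18*. They were chosen as the genes annotated as lincRNA, antisense or bidirectional promoter lncRNA with at least 30 counted reads in each of the 6 libraries, and genes named Snhg and *Gas5* were left out. The rule left 159 of the 55487 genes in the table, of which 80 were lincRNA, 68 antisense and 11 bidirectional promoter lncRNA genes. The control libraries came from mPASMCs transfected with a control siRNA (si-NC, n = 3) and the knockdown libraries from mPASMCs transfected with an siRNA against *Snhg18* (si-*Snhg18*, n = 3). The cells were a commercial stock of cultured mouse cells used at early passage, and the siRNAs were delivered by lipid transfection. Neither the oxygen level of these cultures nor the time after transfection is stated for the sequenced RNA, and nothing states that the libraries of a group came from separate cultures, so p-values measure the spread between these libraries, which may be technical.

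A lncRNA is a transcript without a long open reading frame, and most lncRNAs are spliced, polyadenylated and present at lower levels than mRNAs. Some act in the nucleus, such as *Neat1*, the scaffold of paraspeckles, and *Malat1*, which resides in nuclear speckles. Some come from imprinted loci and are transcribed from 1 parental allele, such as *Meg3* and *H19*, and others act in the cytoplasm on proteins or miRNAs, such as *Norad*, which binds Pumilio proteins, and *Oip5os1*, also called Cyrano, which triggers decay of miR-7. Many others lie beside a protein-coding gene, either antisense to it or in the opposite direction from a shared promoter region.

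The total per library was between 18097718 and 25988746 counted reads, so that 3 reads, taken as the lowest level a library can show, correspond to 0.115 to 0.166 CPM (counts scaled to a common library size; the floor covers counting error only). The 159 lncRNAs took 0.198% to 0.293% of the reads of a library, and *Malat1* alone took 0.0498% to 0.144%, with its lowest share in si-*Snhg18* 2. *Snhg18* itself was at 22.7 ± 0.711 CPM (TMM-normalized; SD, n = 3) in si-NC and at 10.6 ± 0.590 CPM in si-*Snhg18*, 46.7% of control, with a log2 fold change of -1.10 (SE 0.0985, edgeR adjusted p = 0.00727). The 8 smooth muscle markers summed to 1750 to 1896 CPM in si-NC and 1202 to 1851 CPM in si-*Snhg18*, and *Tagln* was the 1 of them that passed the test, lower by 0.51 on the log2 scale (adjusted p = 0.0427). With the replicate number entered as a block, 4 of the 8 passed, all lower (*Tagln*, *Myh11*, *Cnn1* and *Des*, with edgeR adjusted p of 0.00375, 0.0207, 0.0113 and 0.00154). The 5 fibroblast markers summed to 2264 to 2957 and 1375 to 2215 CPM, the 5 endothelial markers to 12.4 to 14 and 13.3 to 15.4 CPM, the 5 leukocyte markers to 20.2 to 43.1 and 24.2 to 63.7 CPM, and the 5 epithelial markers to 7.24 to 22.7 and 1.19 to 7.42 CPM, with *Sftpc* at 0 reads in every library. No gene of those 4 lists passed the test without the block. With it the fibroblast genes *Col1a1* (adjusted p = 0.00369) and *Pdgfra* (0.0112) were lower, as were the endothelial *Tek* (0.0341) and the epithelial *Krt18* (0.00216). The leukocyte gene *Cd14* (0.00369) was higher. *Tek* rested on 4 to 32 reads, and the endothelial *Cdh5*, *Vwf* and *Kdr* had positive log2 fold changes with the block (0.05, 0.45 and 1.00) without passing. The leukocyte gene *Csf1r* (-0.24 with the block) did not pass either. *Epcam*, *Cdh1* and *Krt8* reached at most 3, 1 and 11 reads in a library, so *Krt18* made up most of the epithelial sum. The part of these cells in the results was not tested. In these bulk samples fewer cells of a type and less RNA per cell cannot be told apart.

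Of the 159 lncRNAs, 8 passed an edgeR adjusted p of 0.05 between si-*Snhg18* and si-NC, which is 5.03%, against 7.36% of all 14531 genes tested. The 5 that were higher made 3.14% of the lncRNAs (3.65% of all genes were called higher), and the 3 that were lower made 1.89% (3.71% of all genes). All 8 changed by at least 1.5-fold. *Meg3*, *Gm37233* and *6330403L08Rik* fell, and *4632404H12Rik*, *E130307A14Rik*, *Gm34934*, *Gm19610* and *Oip5os1* rose. The log2 fold changes of all 159 ran from -1.21 to 1.26 with a median of 0.08, against 0.01 over all genes tested. There were 89 positive and 70 negative values, 122 were within 1.5-fold of no change, and 7 were 2-fold or more. The lncRNAs were shallow, with a median of 3.73 CPM against 19.2 CPM over all genes tested, and their log2 CPM varied more between libraries of a group (median SD 0.296 against 0.210). The lower and upper quartiles of the lncRNA levels were 2.64 and 6.86 CPM, within a range of 1.56 to 1118 CPM. Among the 1312 protein-coding genes between these quartiles, 3.43% were called and the median SD was 0.313. The called share of the lncRNAs between the quartiles is not given.

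**Figure D1:**
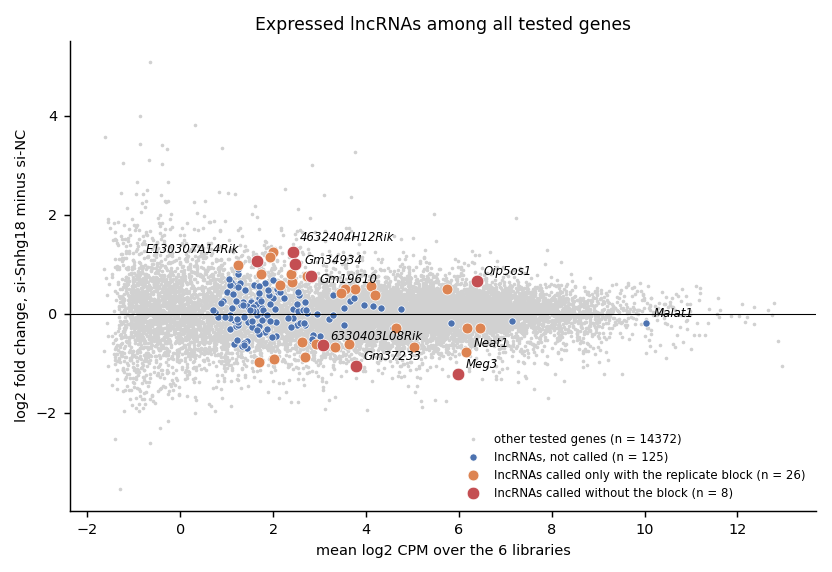
Log2 fold change between si-*Snhg18* and si-NC (y axis) against the mean log2 CPM over the 6 libraries (x axis) for all tested genes (grey), with the 159 lncRNAs in colour. Most lncRNAs lie at low levels on both sides of 0, and the 8 called without the block (red) include *Meg3* and *Oip5os1* among the abundant ones.

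Same-numbered libraries of both groups deviated together, and with their number entered as a block 34 lncRNAs (21.4%) passed, against 27.2% of all genes. Of these, 19 were higher (13.6% of all genes were called higher) and 15 were lower (13.6% of all genes were called lower), and the 8 named above were among them with the same sign. Without the block, leaving out si-NC 1, si-NC 2, si-NC 3 or si-*Snhg18* 3 left 0 lncRNA calls. Leaving out si-*Snhg18* 1 left 3 of them, and leaving out si-*Snhg18* 2 gave 33. Over all genes the calls moved likewise, to 0, 158, 0, 0, 319 and 3282 when si-NC 1, si-NC 2, si-NC 3, si-*Snhg18* 3, si-*Snhg18* 1 and si-*Snhg18* 2 were left out, in that order. In 23 lncRNAs (14.5%) all si-*Snhg18* libraries lay above all si-NC libraries, as in 15.4% of all genes, and in 23 (14.5%) they lay below, as in 15.5% of all genes.

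*Meg3* (ENSMUSG00000021268, chr12:109541001-109571726, plus strand) is the maternally expressed lncRNA of the imprinted interval between *Dlk1* and *Dio3*. Its level was 88.1, 115 and 90.7 CPM in si-NC 1, 2 and 3 and 31.1, 53.9 and 42.0 CPM in si-*Snhg18* 1, 2 and 3. All knockdown libraries lay below all controls. The log2 fold change was -1.21 (SE 0.21, adjusted p = 0.0265). Downstream on the same strand lies *Rian*, an imprinted snoRNA host that its annotation as a processed transcript kept out of the 159, and it was at 161, 198 and 174 CPM in si-NC and 63.7, 100.2 and 71.2 CPM in si-*Snhg18*. It fell by a similar amount, with a log2 fold change of -1.18 (SE 0.18, adjusted p = 0.0193). *Mirg*, the miRNA host further downstream, which holds 14 annotated miRNA genes on its strand, was at 2.59, 3.59 and 3.43 CPM in si-NC and 1.19, 2.19 and 2.90 CPM in si-*Snhg18*. It was lower in each same-numbered pair, but the groups overlapped and it did not pass (log2 fold change -0.62, SE 0.35, adjusted p = 0.33, and 0.0923 with the block).

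The paternally expressed genes of the interval were sparse. *Dlk1*, which encodes a membrane protein of the Notch ligand family, did not pass, with 3.29 ± 0.589 CPM in si-NC and 3.12 ± 0.385 CPM in si-*Snhg18* (log2 fold change -0.08, SE 0.22, adjusted p = 0.86), and it was named here after its values had been seen. *Rtl1* reached at most 2 reads and *Dio3* at most 8 reads in a library, too few for a comparison. The promoter window of *Meg3* from RefSeq, from 250 bases before to 50 bases after the annotated start (GRCm38.p6, chr12:109540746-109541045, plus strand), is shown because this lncRNA had the largest fall of the 159. Capitals mark its CCAAT box, and it held no GC box (GGGCGG) on either strand.
Meg3 promoter: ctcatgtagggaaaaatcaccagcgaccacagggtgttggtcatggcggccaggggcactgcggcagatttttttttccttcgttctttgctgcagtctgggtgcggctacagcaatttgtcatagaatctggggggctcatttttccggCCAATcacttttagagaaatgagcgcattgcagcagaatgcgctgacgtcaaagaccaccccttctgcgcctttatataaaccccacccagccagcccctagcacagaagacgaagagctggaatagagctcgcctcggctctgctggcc

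*Gm37233* (ENSMUSG00000102336), an uncharacterized lincRNA on chromosome 1 (34427002 to 34433264, minus strand) with 1 annotated exon, had the smallest p-value of the lncRNAs. It was at 18, 21.2 and 20.3 CPM in si-NC and 9.02, 10.6 and 9.10 CPM in si-*Snhg18*, so that the groups were well apart (log2 fold change -1.05, SE 0.12, adjusted p = 0.0106). It contains the annotated miRNA gene *Mir5103*. The nearest protein-coding gene, *Ccdc115*, which encodes a factor for assembly of the vacuolar proton pump, ends 3406 bp away and did not pass (log2 fold change 0.21, adjusted p = 0.28). *6330403L08Rik* (chr5:138995056-139000577, plus strand) overlaps the start of *Pdgfa*, the gene of a platelet-derived growth factor chain that drives smooth muscle growth, on the opposite strand. Its level was 10.3, 9.92 and 11.0 CPM in si-NC and 5.94, 6.96 and 7.34 CPM in si-*Snhg18* (log2 fold change -0.63, SE 0.14, adjusted p = 0.0463). *Pdgfa* was at 19, 26.3 and 25.3 CPM in si-NC and 19.9, 21.4 and 21.8 CPM in si-*Snhg18* and did not pass (log2 fold change -0.16, adjusted p = 0.51). Exons of both genes cover 14.7% of the exon bases of *6330403L08Rik*. The library kit keeps the strand, but the strand setting of the counting is not given in the sources used here, so reads there may belong to either gene.

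*Oip5os1* (Cyrano, ENSMUSG00000085438, chr2:119594297-119607502, plus strand) was the most abundant lncRNA that rose. It was at 65.4, 73.3 and 60.7 CPM in si-NC and 89.3, 124 and 103 CPM in si-*Snhg18*. Every knockdown library lay above every control (log2 fold change 0.67, SE 0.14, adjusted p = 0.0395). The neighbouring gene *Oip5*, which encodes a centromere protein, ends 2010 bp away. It was at 4.06, 5.68 and 3.39 CPM in si-NC and 1.86, 3.81 and 1.92 CPM in si-*Snhg18* (log2 fold change -0.78, SE 0.36, adjusted p = 0.24, and 0.0265 with the block). Cyrano is known for a site of near-complete pairing to miR-7, and this site is shown as the feature by which the transcript acts. In the longest annotated transcript (8300 bases) it lies at positions 2935 to 2959, where 21 of the 23 bases of miR-7a-5p find their partner, 8 at the 5′ end and 13 at the 3′ end of the miRNA. The transcript holds 2 matches to the seed. Both sequences are written 5′ to 3′, with the seed of the miRNA (bases 2 to 8) and its match in capitals. The mature miRNA was taken from RefSeq and the site from the GENCODE M21 transcript.
miR-7a-5p: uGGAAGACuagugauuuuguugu
Oip5os1 site: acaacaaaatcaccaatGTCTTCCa

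The promoter window of *Oip5os1* (RefSeq, GRCm38.p6, chr2:119594046-119594345, plus strand) follows, with its 2 CCAAT boxes and 2 GC boxes in capitals, each read on both strands. Mature miR-7 cannot be seen in a library of polyadenylated RNA, and its level was not analysed here.
Oip5os1 promoter: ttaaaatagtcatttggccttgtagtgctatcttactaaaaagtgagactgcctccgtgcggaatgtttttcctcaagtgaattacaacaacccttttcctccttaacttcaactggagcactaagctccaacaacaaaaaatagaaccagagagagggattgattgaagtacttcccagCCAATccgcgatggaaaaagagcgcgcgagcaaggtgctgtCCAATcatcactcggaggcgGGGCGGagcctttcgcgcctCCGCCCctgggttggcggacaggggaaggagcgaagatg

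The remaining 4 lncRNAs that rose were at low levels. *Gm34934* (chr14:46866576-46882757, minus strand) was at 3.97, 3.76 and 3.86 CPM in si-NC and 7.68, 7.50 and 8.11 CPM in si-*Snhg18*, and its libraries were closely grouped on both sides (log2 fold change 1.01, SE 0.14, adjusted p = 0.0144). It starts 97 bp from *Samd4*, the gene of an RNA-binding repressor of translation, which lay between 185 and 264 CPM in all libraries and did not pass (log2 fold change -0.01, SE 0.17, adjusted p = 0.98). *4632404H12Rik* (chr3:89767511-89773240, minus strand) was at 3.80, 2.45 and 4.24 CPM in si-NC and 10.1, 6.19 and 8.82 CPM in si-*Snhg18* (log2 fold change 1.26, SE 0.28, adjusted p = 0.0474). It starts 376 bp from *Ube2q1*, the gene of a ubiquitin-conjugating enzyme, which had a log2 fold change of 0.35 (adjusted p = 0.22, and 0.0186 with the block). Both lncRNAs are transcribed away from these genes.

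*E130307A14Rik* (chr10:39621412-39732007, minus strand) overlaps *Traf3ip2*, the gene of an adaptor of interleukin-17 signaling, on the opposite strand. The lncRNA was at 2.16, 2.33 and 1.86 CPM in si-NC and 4.47, 4.88 and 4.06 CPM in si-*Snhg18* (log2 fold change 1.08, SE 0.19, adjusted p = 0.0274). *Traf3ip2* was at 28.4, 30.5 and 29.4 CPM in si-NC and 17.5, 23.8 and 21.7 CPM in si-*Snhg18*, so it lay in the other direction and did not pass without the block (log2 fold change -0.49, SE 0.13, adjusted p = 0.0742, and 0.0110 with the block). *Gm19610* (chr5:91051871-91074773, minus strand) overlaps the start of *Ereg*, the gene of the growth factor epiregulin. It was at 5.14, 5.64 and 5.13 CPM in si-NC and 9.97, 7.54 and 9.70 CPM in si-*Snhg18* (log2 fold change 0.77, SE 0.16, adjusted p = 0.0408). *Ereg* ranged from 123 to 505 CPM in si-NC and from 92.0 to 646 CPM in si-*Snhg18*, with its lowest values in the libraries of repeat 2, and had a log2 fold change of 0.06 (SE 0.75, adjusted p = 0.97). Opposite exons cover 34.6% of the exon bases of *Gm19610* and 4.10% of those of *E130307A14Rik*.

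**Figure D2:**
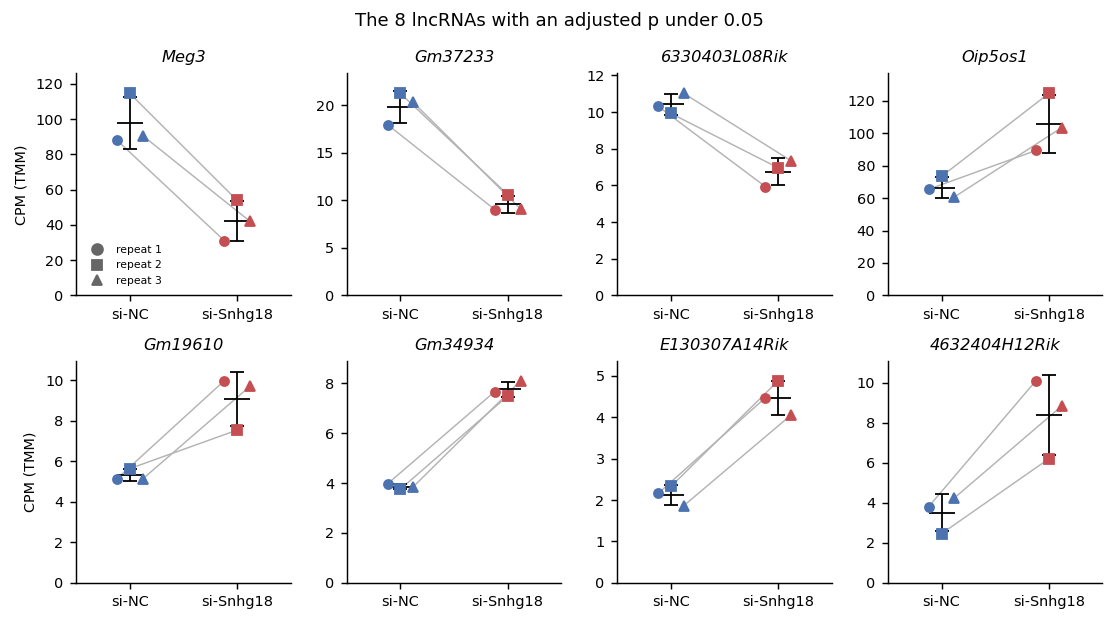
TMM-normalized CPM (y axis, from 0) of the 8 called lncRNAs in each library, with grey lines between same-numbered repeats and black marks for the mean ± SD (n = 3). In each panel the 3 si-*Snhg18* libraries lie on 1 side of the 3 si-NC libraries.

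The lncRNAs of known role were read from 6 lists of gene names, some of which hold aliases of the same gene. Of 8 imprinted lncRNAs listed, 5 were among the 159, of which 1 (*Meg3*) was lower and 0 were higher. *Airn*, which is antisense to the receptor gene *Igf2r* and is known for silencing it on the paternal allele, was at 4.23, 5.76 and 3.35 CPM in si-NC and 2.02, 2.61 and 2.19 CPM in si-*Snhg18*. The groups did not overlap (log2 fold change -0.96, SE 0.26, adjusted p = 0.0794, and 0.0166 with the block). *Igf2r* was at 513, 526 and 547 CPM in si-NC and 660, 640 and 617 CPM in si-*Snhg18* (log2 fold change 0.27, SE 0.06, adjusted p = 0.0526, and 0.0146 with the block). With the block *Airn* thus fell while *Igf2r* rose. *H19*, the host of *Mir675*, and *Kcnq1ot1*, which silences genes of its imprinted domain, had log2 fold changes of -0.15 (SE 0.23, adjusted p = 0.72) and 0.03 (SE 0.25, adjusted p = 0.96). The sign of *Kcnq1ot1* turned with the block, under limma-voom and without si-*Snhg18* 3 (-0.22). Outside the 159, *Peg13* fell by 0.43 on the log2 scale (SE 0.09, adjusted p = 0.0384).

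Of 12 names of nuclear and broadly expressed lncRNAs listed, which include aliases such as *Norad* and *2900097C17Rik*, 4 genes were among the 159, and 1 (*Oip5os1*) was higher. *Neat1* was at 84.8, 114 and 84.5 CPM in si-NC and 44.8, 69.4 and 51.5 CPM in si-*Snhg18*. All knockdown libraries lay below all controls (log2 fold change -0.77, SE 0.19, adjusted p = 0.0665, and 0.000761 with the block). *Malat1*, its neighbour on chromosome 19, was at 1221, 879 and 1457 CPM in si-NC and 1438, 485 and 1228 CPM in si-*Snhg18*. The low values of both groups belonged to repeat 2, the groups overlapped, and the log2 fold change of -0.17 (SE 0.40, adjusted p = 0.82) became 0.17 without si-*Snhg18* 2 and 0.005 without si-NC 3. *Norad* (*2900097C17Rik*) was the steadiest, at 147, 153 and 145 CPM in si-NC and 130.3, 136 and 135 CPM in si-*Snhg18*, and its small difference did not pass (log2 fold change -0.15, SE 0.06, adjusted p = 0.17, and 0.0790 with the block). Without si-*Snhg18* 2, *Neat1* (-0.98, adjusted p = 0.0114) and *Airn* (-1.08, adjusted p = 0.0442) passed in the fit without the block. Between the repeats, *Neat1*, *Meg3* and *Oip5os1* were highest in repeat 2 of each group while *Malat1* was lowest there.

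**Figure D3:**
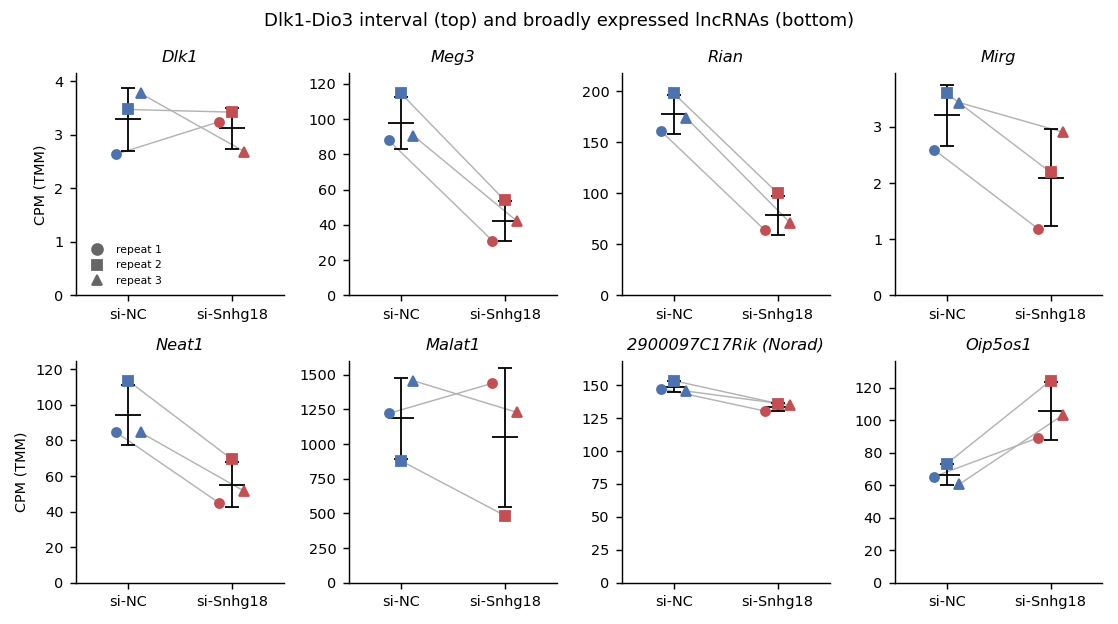
TMM-normalized CPM (y axis, from 0) per library of *Dlk1*, *Meg3*, *Rian* and *Mirg* (top) and of *Neat1*, *Malat1*, *Norad* and *Oip5os1* (bottom), with lines between same-numbered repeats and the mean ± SD (n = 3). *Meg3* and *Rian* were lower in each si-*Snhg18* library, *Dlk1* overlapped between groups, and *Malat1* was lowest in repeat 2 of both groups.

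Of 16 names of small RNA hosts listed, 4 were among the 159 and 0 passed without the block. *Mir155hg*, the host of the inflammatory miR-155, was at 5.61, 2.90 and 4.15 CPM in si-NC and 10.6, 3.04 and 8.71 CPM in si-*Snhg18*. It was higher in each pair, but by little in repeat 2 (log2 fold change 0.81, SE 0.48, adjusted p = 0.34, 0.0487 with the block, and 0.0303 without si-*Snhg18* 2, where the log2 fold change was 1.19). *Mir17hg*, *Dnm3os* and *Epb41l4aos*, hosts of the miR-17 cluster, of miR-199a and miR-214, and of a snoRNA, had log2 fold changes of -0.10 (SE 0.24), 0.15 (SE 0.26) and 0.38 (SE 0.16). Of the non-members on this list, *Zfas1*, a host of snoRNAs, rose (log2 fold change 0.87, SE 0.17, adjusted p = 0.0369), whereas *Mir100hg* and *Mir22hg* had values of -0.13 (SE 0.10) and 0.03 (SE 0.16). By position in the annotation, 11 of the 159 contained 34 miRNA genes on their own strand and 3 contained 3 snoRNA or scaRNA genes. Of the 11, *Meg3* and *Gm37233* passed without the block, and *Mir155hg* and *Gm49890*, which holds *Mir31*, were called higher only with it (*Gm49890*: log2 fold change 0.42, SE 0.28, adjusted p = 0.41, and 0.0484 with the block).

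Of 10 names of stress and growth arrest lncRNAs listed, 4 were among the 159 and 0 passed without the block. *Pvt1*, the neighbour of *Myc*, *Lncpint*, a p53-induced lncRNA, and *Morrbid*, which acts on *Bcl2l11*, had log2 fold changes of 0.08 (SE 0.21), 0.23 (SE 0.30) and 0.13 (SE 0.28). Their signs turned when 1 library was left out, to -0.10 for *Pvt1* and -0.08 for *Morrbid* without si-*Snhg18* 2, to -0.05 and -0.06 without si-NC 2 and si-NC 3, and to -0.03 for *Lncpint* without si-*Snhg18* 1. *Ptgs2os2*, named for its neighbour *Ptgs2*, the gene of an inducible prostaglandin synthase, was at 30.9, 21.6 and 31.8 CPM in si-NC and 26, 17.3 and 25.4 CPM in si-*Snhg18* (log2 fold change -0.29, SE 0.21, adjusted p = 0.44, and 0.0384 with the block). Of 6 X-linked lncRNAs listed, *Ftx*, which takes part in X inactivation, was the 1 among the 159, with a log2 fold change of 0.32 (SE 0.19, adjusted p = 0.34). Of 17 HOX and mesenchymal lncRNAs listed, *Hoxb5os* was the 1 among them, at 5.14, 4.25 and 4.49 CPM in si-NC and 2.41, 4.81 and 2.79 CPM in si-*Snhg18* (log2 fold change -0.47, SE 0.29, adjusted p = 0.37), and without si-*Snhg18* 2 its log2 fold change was -0.83 (adjusted p = 0.0362).

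The lncRNAs were next grouped by where they lie relative to protein-coding genes in the coordinates of the table. Those that overlap a protein-coding gene were classed by that overlap first. In 21 others the start lay within 5 kb of the start of a protein-coding gene on the opposite strand, pointing away from it (head-to-head). Their median log2 fold change was 0.50, with 15 positive and 6 negative values. Of these 21, 2 passed the test, both higher, and with the block 7 (33.3%) were higher and 0 were lower, beside the 13.6% of all genes called in each direction. The other 138 lncRNAs had a median of 0.05. By annotation, the 11 bidirectional promoter lncRNAs, in whichever class they lay, had a median of 0.25, with 0 called without the block. With the block 3 of these 11 were higher and 1 was lower. Between libraries the median log2 CPM of the 21 head-to-head lncRNAs had an SD of 0.155. The 75 that overlap a protein-coding gene on the opposite strand had a median of 0.06, with 2 higher and 1 lower, and 7 higher and 7 lower with the block. The 42 with no protein-coding gene within 5 kb had a median of -0.07, with 0 higher and 1 lower, and 1 higher and 4 lower with the block. The 14 with another gene within 5 kb (median 0.13) held 1 higher and 1 lower, and 3 and 3 with the block, and the 7 that overlap on the same strand (median 0.25) held 0 without the block and 1 in each direction with it. The median of the head-to-head group was between 0.34 without si-*Snhg18* 1 and 0.68 without si-*Snhg18* 2. When si-*Snhg18* 2 was left out, 10 of the 21 were higher and 1 was lower. Calls rose over all genes in that fit too, to 3282 from 1069 with all libraries kept. Among all the lncRNAs examined, 19 were then higher and 14 lower. The share of all genes called in each direction is not given for that fit, so the 10 cannot be read as a trait of the head-to-head group. The difference between these classes was not tested.

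**Figure D4:**
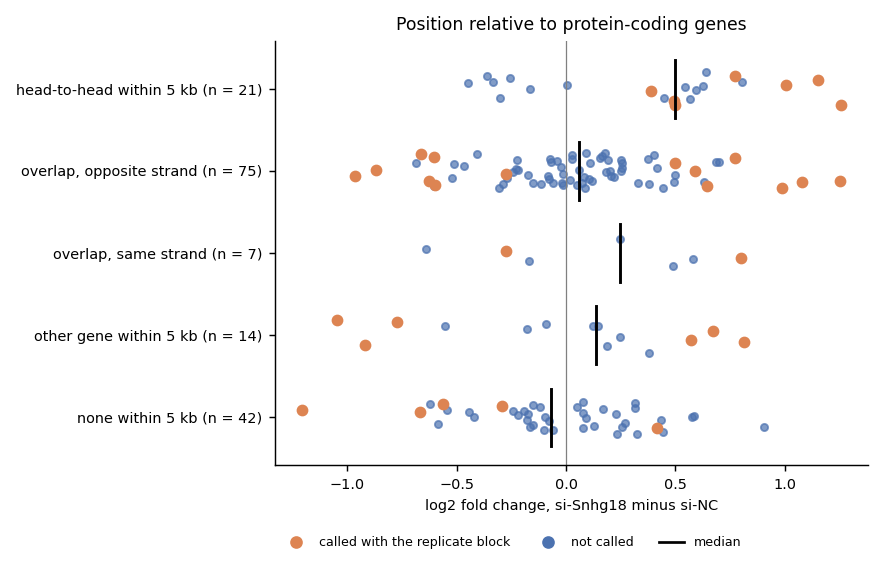
Log2 fold change between si-*Snhg18* and si-NC (x axis) of the 159 lncRNAs by their position relative to protein-coding genes (y axis), with the class median as a bar and lncRNAs called with the replicate block in orange. The bar of the head-to-head class lies at 0.50 and those of the other classes between -0.07 and 0.25.

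The 7 head-to-head lncRNAs called with the block were *4632404H12Rik*, *Gm34934*, *Gm7160*, *F730043M19Rik*, *5031425E22Rik*, *Gm21781* and *C030037D09Rik*, of which the last 5 were named after their values had been seen. *Gm7160* starts 124 bp from *Zcchc2*, the gene of a zinc finger protein. It was at 3.07, 1.88 and 2.80 CPM in si-NC and 7.36, 3.42 and 6.41 CPM in si-*Snhg18* (log2 fold change 1.15, SE 0.34, adjusted p = 0.10, and 0.00612 with the block). *Zcchc2* lay at 75.1, 53.8 and 73.6 CPM in si-NC and 143, 63.8 and 107 CPM in si-*Snhg18* (log2 fold change 0.63, SE 0.29, adjusted p = 0.24, and 0.0124 with the block), so that both members of the pair were higher in each repeat. *5031425E22Rik* starts 172 bp from *Kmt2e*, the gene of a chromatin regulator of the MLL family. It was at 11.8, 10.5 and 11.9 CPM in si-NC and 18.4, 12.1 and 17.7 CPM in si-*Snhg18* (log2 fold change 0.50, SE 0.18, adjusted p = 0.16, and 0.0298 with the block). *Kmt2e* rose from 100.5, 97.9 and 104 CPM to 127, 119 and 133 CPM and passed without the block (log2 fold change 0.33, SE 0.07, adjusted p = 0.0393).

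*F730043M19Rik*, which starts 96 bp from *Atxn7l1*, was at 15.9, 15.1 and 17 CPM in si-NC and 21.1, 18.2 and 23.7 CPM in si-*Snhg18* (log2 fold change 0.39, SE 0.13, adjusted p = 0.12, and 0.0268 with the block), with 0.15 for *Atxn7l1* (adjusted p = 0.33). *C030037D09Rik*, 132 bp from *Msi2*, the gene of an RNA-binding protein of stem cells, was at 10.5, 7.19 and 12.5 CPM in si-NC and 18.6, 8.88 and 15.1 CPM in si-*Snhg18*, and the groups overlapped, with repeat 2 low in both (log2 fold change 0.49, SE 0.32, adjusted p = 0.38, and 0.0474 with the block). *Gm21781* lies 3479 bp from *Zbtb2*, and its si-*Snhg18* 2 value of 4.84 CPM fell within the si-NC range of 4.37 to 5.96 CPM, against 10.5 and 11.1 CPM in si-*Snhg18* 1 and 3 (log2 fold change 0.77, SE 0.33, adjusted p = 0.21, and 0.0399 with the block). Of the 21 head-to-head protein-coding neighbours, 13 had the sign of their lncRNA, and their median log2 fold change was 0.15. *Gm17501* had the lowest value of the class (log2 fold change -0.45, SE 0.25, adjusted p = 0.33), and its neighbour *Ccn1*, the gene of a secreted matrix protein and target of YAP, fell by 0.75 on the log2 scale (adjusted p = 0.0304). *Gm20045* (0.57, SE 0.42) did not pass, while its neighbour *Dedd*, the gene of a death effector domain protein, rose by 0.47 (adjusted p = 0.0377).

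**Figure D5:**
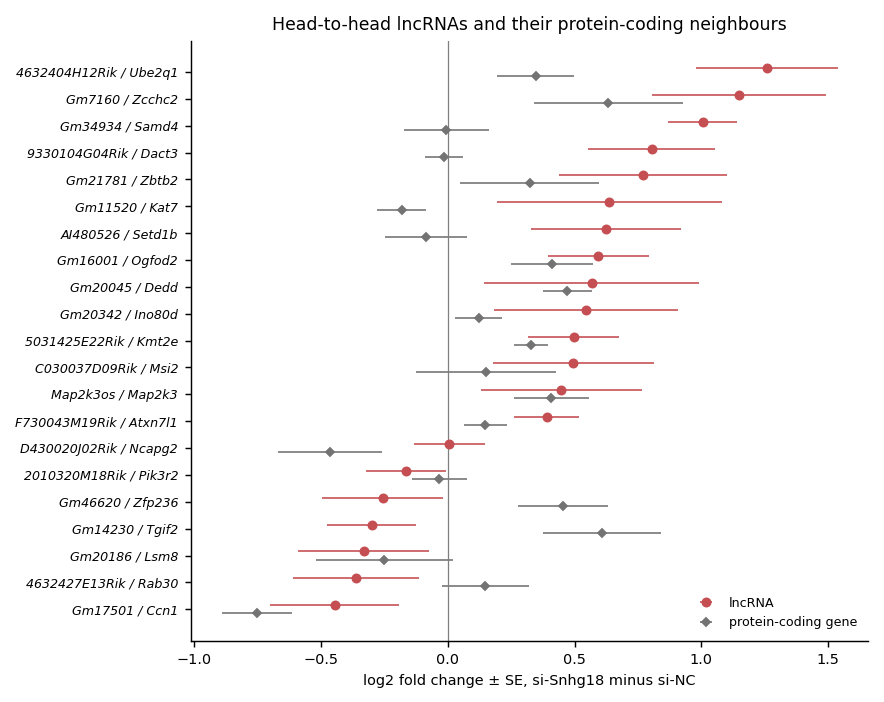
Log2 fold change ± SE between si-*Snhg18* and si-NC (x axis) for the 21 head-to-head pairs (y axis), with the lncRNA as red circles and the protein-coding gene as grey diamonds. The lncRNA lay above 0 in 15 pairs and its neighbour in 13.

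The bases between the 2 starts of 4 of these pairs are shown to let the shared promoter regions be compared, each in the direction of the lncRNA and with GC boxes (GGGCGG) and CCAAT boxes in capitals on both strands. They were read from RefSeq promoter windows (GRCm38.p6). The interval between *Gm34934* and *Samd4* is chr14:46882758-46882853 (minus strand, 77.1% G or C), that between *Gm7160* and *Zcchc2* is chr1:105990283-105990405 (minus strand, 69.1%), and that between *C030037D09Rik* and *Msi2* is chr11:88718514-88718644 (plus strand, 74.8%). For *4632404H12Rik* and *Ube2q1* the window covers 265 bases of the interval, chr3:89773351-89773615 (minus strand, 77.0%).
Gm34934 / Samd4: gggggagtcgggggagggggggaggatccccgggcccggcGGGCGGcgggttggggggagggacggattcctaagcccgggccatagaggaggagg
Gm7160 / Zcchc2: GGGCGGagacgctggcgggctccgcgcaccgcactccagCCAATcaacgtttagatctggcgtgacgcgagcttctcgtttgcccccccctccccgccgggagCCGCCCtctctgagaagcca
C030037D09Rik / Msi2: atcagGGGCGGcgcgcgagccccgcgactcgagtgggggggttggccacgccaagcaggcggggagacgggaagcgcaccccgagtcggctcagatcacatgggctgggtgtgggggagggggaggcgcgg
4632404H12Rik / Ube2q1: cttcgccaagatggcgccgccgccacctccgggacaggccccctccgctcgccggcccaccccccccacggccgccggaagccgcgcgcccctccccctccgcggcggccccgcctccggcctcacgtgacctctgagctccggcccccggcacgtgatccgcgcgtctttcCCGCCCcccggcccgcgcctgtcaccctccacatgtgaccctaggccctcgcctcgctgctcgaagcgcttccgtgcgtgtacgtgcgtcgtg

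RefSeq promoter windows of 300 bases were found for 92 of the 159 lncRNAs by symbol (111 windows). A GC box on either strand lay in 41.4% of them, against 35.7% of all 32851 windows, and in 75% of the 16 windows of head-to-head lncRNAs against 35.8% of the other 95. A CCAAT box lay in 50.5% of the lncRNA windows and in 37.4% of all windows, and a TATAAA box in 9.01% and 13.6%. The letters ACGTG, which occur in many hypoxia response elements and in some E-boxes, lay in 32.4% and 19.6%. The median share of G or C was 55.0% in lncRNA windows, 67.7% in head-to-head windows and 52.7% in all windows, so the base composition moved with the share of GC boxes and its part in that share was not tested. These are matches of letters only.

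In 16 pairs the lncRNA and its nearest or overlapping protein-coding gene were both called with the block, 8 with the same sign and 8 with opposite signs. Of these, 8 were pairs that overlap on opposite strands, 4 with the same sign and 4 with opposite signs (*Airn*, *E130307A14Rik*, *Fgf2os* and *D030025P21Rik*). Those described next were named after their values had been seen. *Fgf2os* is antisense to *Fgf2*, the gene of basic fibroblast growth factor. It was at 3.45, 1.76 and 2.80 CPM in si-NC and 8.27, 3.11 and 7.73 CPM in si-*Snhg18* (log2 fold change 1.25, SE 0.43, adjusted p = 0.14, and 0.00558 with the block). *Fgf2* was at 397, 320 and 424 CPM in si-NC and 256, 182 and 256 CPM in si-*Snhg18* (log2 fold change -0.72, SE 0.17, adjusted p = 0.0540, and 0.000681 with the block). No exon bases of *Fgf2os* lie under an opposite exon, whereas for *D030025P21Rik* the share is 19.2%. *D030025P21Rik*, which overlaps the start of *Ltbp2*, the gene of a protein of elastic fibres, was at 4.79, 2.82 and 3.30 CPM in si-NC and 6.57, 4.08 and 5.81 CPM in si-*Snhg18* (log2 fold change 0.59, SE 0.28, adjusted p = 0.25, and 0.0461 with the block). *Ltbp2* fell without the block as well, from 381, 408 and 391 CPM to 262, 257 and 255 CPM (log2 fold change -0.61, SE 0.06, adjusted p = 0.00761).

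*Gm41724* and *Brip1os* had the sign of their overlapping gene. Opposite exons cover 5.46% of the exon bases of *Gm41724* and 20.2% of those of *Brip1os*. The strand setting of the counting is not given, so reads there may belong to either gene. *Gm41724* lies antisense to *Lox*, the gene of the collagen cross-linking enzyme lysyl oxidase. It was at 10.4, 13.1 and 14.7 CPM in si-NC and 7.68, 7.96 and 8.49 CPM in si-*Snhg18* (log2 fold change -0.66, SE 0.16, adjusted p = 0.0592, and 0.0110 with the block), and *Lox* had a log2 fold change of -0.57 (SE 0.27, adjusted p = 0.26, and 0.00139 with the block). *Brip1os* is antisense to *Ints2*, a subunit of the Integrator complex. It was at 74.9, 96.0 and 72.3 CPM in si-NC and 53.1, 88.3 and 59.6 CPM in si-*Snhg18* (log2 fold change -0.28, SE 0.21, adjusted p = 0.47, and 0.0337 with the block), and *Ints2* fell without the block (log2 fold change -0.59, SE 0.13, adjusted p = 0.0493). Of the 130 lncRNAs whose nearest or overlapping protein-coding gene was tested, 67 had its sign, and across them Pearson's r of the log2 fold changes was 0.05 and Spearman's rho 0.08, all from the same 6 libraries. In 0 pairs did both genes pass without the block. In all, 88 of the 159 share exon bases with an opposite exon, 9 of them over more than 50% of their length, and 14 of the 34 called with the block are among the 88.

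By level per kilobase of exon, *Malat1* was highest (160 CPM per kb over all libraries), followed by *3300005D01Rik* (68.0), *Meg3* (37.0), *Norad* (28.7) and *Brip1os* (28.4). *3300005D01Rik*, an uncharacterized lincRNA, was at 42.7, 32.8 and 49.6 CPM in si-NC and 32.7, 21.3 and 24.9 CPM in si-*Snhg18*. Its groups were separated by a small gap (log2 fold change -0.67, SE 0.21, adjusted p = 0.11, and 0.00763 with the block). Without *Malat1* the lncRNAs took between 0.140% and 0.157% of the reads of each library.

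The choice of 30 reads in each library decided which lncRNAs were described. Of 8811 genes of these types, 5773 had 0 reads in every library, and 108 reached a mean of 30 reads but not 30 in each library. The rule dropped 42 genes that held 30 reads in every si-NC library but not in every si-*Snhg18* library, and 29 for which the groups were reversed. The threshold was on raw reads, and si-*Snhg18* 3 had the smallest total (18097718 reads). The part of depth in these numbers was not tested. Just inside the threshold were *Gm11520*, *2700038G22Rik* and *Mirg*, each with a lowest library of 30 reads, and just outside were *Gm9776*, *Hoxb3os* and *4930511M06Rik*, each with a lowest library of 29 reads. Of 421 tested lncRNA genes that the rule left out, 4 passed the test, beside 7.36% of all genes tested. These 4 were named after their values had been seen, and their lowest libraries held 8 to 25 reads. *Gm14221* was at 0.907, 0.939 and 0.424 CPM in si-NC and 3.64, 6.38 and 2.47 CPM in si-*Snhg18* (log2 fold change 2.46), *Gm9856* and *Gm8066* were higher by 1.69 and 1.29, and *Gm12415* was lower, with -1.55. Another 71 genes with 30 reads in each library are annotated as processed transcripts, such as *Rian* and *Mir100hg*, and were not counted here.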

How the data were processed

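RNA from transfected mPASMCs was extracted with Trizol, and the authors prepared libraries with the TruSeq Stranded mRNA kit. The authors' deposited table holds whole-number counts of reads per gene, without normalization, with exon lengths and GRCm38.p6 coordinates. The submitters' processing notes name HISAT2 and mm10, and the counting program, its strand setting and any filter on reads are not given in the sources used here. All 6 columns of counts were used, and groups and replicate numbers came from the sample labels.

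The members and lists were chosen with earlier results of these data known. The libraries were compared with edgeR 4.0.16 in R 4.3.3 (filterByExpr with a minimum count of 10, TMM, glmQLFit and glmQLFTest) over all 14531 genes kept, with Benjamini-Hochberg adjustment and a call at an adjusted p under 0.05. With 3 libraries in a group, an exact permutation test of 1 gene cannot give a two-sided p under 0.1. Neither the paper nor the labels state that equal repeat numbers share a culture, so the planned fit had no block. Deviations from the group means correlated between same-numbered libraries over all genes (Pearson's r of 0.41, 0.74 and 0.36 for repeats 1, 2 and 3). The 3 deviations of a group sum to 0, so these 3 values are not independent. Because of this correlation, results of a fit blocked on the replicate number are printed beside those of the planned fit. Replicates of a group differed by more than counting noise (chi-square per degree of freedom 6.34 to 114), so none was a repeat reading of another library. All were counted as separate samples, but this spread cannot show that they came from separate cultures. Between repeats 1 and 3 the value was 6.34 in si-NC and 13.2 in si-*Snhg18*. Pairs with repeat 2 gave 35.6 and 45.3 in si-NC and 114 and 53.6 in si-*Snhg18*.

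Position classes came from the coordinates in the table, with 5 kb as the near distance. Exons came from GENCODE M21, which held 55141 of the 55487 genes, 54781 of them at the same coordinates. Named genes were the members called without the block with their nearest protein-coding genes, all listed lncRNAs of known role among the members, the 5 highest per kb of exon, and the 3 on either side of the threshold. Other names were added after values were seen. Alternatives were RLE factors, library totals, DESeq2 1.42.0, limma-voom (limma 3.58.1), other filters, thresholds and member rules, the replicate block, and leaving out each library. The edgeR steps were tested on simulated data.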

Additional observations from a re-analysis of the deposited data

How the results depend on the processing

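The median log2 fold change of the 159 lncRNAs (0.08 in the planned fit) stayed positive under every alternative fit and choice of members, between 0.02 and 0.11. All of these drew on the same 6 libraries. Between libraries the median log2 CPM of the 159 had an SD of 0.0737, about as large as that median change. The numbers of lncRNAs higher and lower (5 and 3) became 10 and 8 with DESeq2 (8.17% and 8.02% of all genes were called higher and lower), 12 and 13 with DESeq2 and the block (11.7% and 11.9%), 19 and 15 with the replicate block alone in edgeR (13.6% and 13.6%), and 8 and 8 at an adjusted p under 0.1 (6.82% and 6.7%). The number higher became 3 with limma-voom (3.36% of all genes). With other member rules it was 8 of 352 at a minimum of 10 reads, 2 of 49 at a minimum of 100 reads and 8 of 267 at a mean of 30 reads. Among the 58 lncRNAs with no gene on the opposite strand it was 3. These sets differ in size, and 3.65% of all genes were called higher in the planned fit. Leaving out 1 library gave 0 to 19 higher and 0 to 14 lower. RLE factors, library totals, all genes held to 30 reads and the 1.5-fold threshold moved neither number by more than 1.5 times. The 8 calls were kept under RLE, DESeq2, the block and DESeq2 with the block, 7 with library totals, and 6 each with limma-voom and without a filter. *Snhg18* kept its direction, with log2 fold changes of -1.14 to -1.06 when 1 library was left out, and did not pass without si-NC 1, si-NC 3 or si-*Snhg18* 3. The sign turned for *Kcnq1ot1* with limma-voom (-0.063) and the block (-0.017), and for 7 of the 25 lncRNAs of known role or called without the block when 1 library was left out, with ranges of -0.22 to 0.25 for *Kcnq1ot1*, -0.47 to 0.17 for *Malat1*, -0.23 to 0.018 for *Mir17hg*, -0.10 to 0.19 for *Pvt1*, -0.084 to 0.37 for *Morrbid*, -0.035 to 0.48 for *Lncpint* and -0.11 to 0.36 for *Dnm3os*. The cause was not tested. The median of head-to-head lncRNAs, examined under these alternatives after its value was seen, lay between 0.34 and 0.68. The other pairing results are in the text, and the block ended 0 of the 8 calls. The median SE of the 159 log2 fold changes was 0.25.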
